A study of Danio rerio with 2 samples.

Results

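The transcripts described here encode transcription factors that set up the retina and start the production of its neurons. They were chosen by name, with earlier results of these data known. The eye-field and progenitor genes are rx1, rx2 and rx3, and the differentiation genes are atoh7, ptf1a, neurod4, crx, vsx1 and isl1. Looked up by symbol with case ignored and both copies counted, these 9 names found 11 rows among the 51544 features of the deposited table, because crx and isl1 each met 2 rows. Messenger RNA came from the heads of 33 hpf (hours post fertilisation) zebrafish embryos of strain AB, severed anterior to the developing ear. 1 library was made from rbm24a-/- embryos, which carry an 8 bp deletion made with TALEN nucleases in the first exon of rbm24a, and 1 from wildtype embryos. The series title concerns Rbm24 as a regulator of translation in lens crystallin accumulation, so the retina was not its stated subject.

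In the vertebrate eye, rx genes mark the eye field and then dividing progenitors of the optic cup. As progenitors leave the cell cycle, basic helix-loop-helix (bHLH) factors such as atoh7, ptf1a and neurod4 set which neuron forms, and homeodomain factors such as crx, vsx1 and isl1 then establish the identity of photoreceptors, bipolar cells and ganglion cells. Ganglion cells form first in the zebrafish retina. Several of these genes also act outside it: rx3 in the hypothalamus, ptf1a in the hindbrain and pancreas, isl1 in cranial sensory and motor neurons, crx in the pineal organ, and neurod4 in many parts of the young brain.

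The rbm24a-/- library held 16667612 assigned reads and the wildtype library 14148577. Levels are given as CPM, read counts scaled to the assigned reads of their library. With 1 library per group there is no replicate check, no test was possible and no p-value is given. Exact 95% intervals stand beside the values; they describe counting error and nothing else, since PCR reads are not independent molecules. A feature counted as measured with a mean of at least 1 CPM over both libraries, which 18094 features reached. Log2 ratios are mutant over wildtype with 1 CPM added to each level. Limits of 2-fold and 1.5-fold were read on these log2 ratios, while the folds printed for single genes are plain CPM ratios. A gene with few reads can thus exceed 2-fold in plain CPM without passing the limit. The row taken as the target, rbm24a (listed as RBM24, ENSDARG00000102995, length entry 35150 bp against a RefSeq span of 35948 bp), had 121 reads in rbm24a-/- heads and 224 in wildtype heads. Its level was 2.18-fold lower in rbm24a-/- heads (interval 1.74 to 2.74), and because a short deletion can leave the transcript in place, this is a weak check of the label. A second row with the name RBM24 (ENSDARG00000031809) had 13 reads in rbm24a-/- heads and 31 in wildtype heads, 2.81-fold lower in rbm24a-/- heads (interval 1.43 to 5.85), so the lower level was not limited to the row taken as the target.

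Of the 11 rows, 10 were measured, each at 3.72 CPM or more in both libraries, so none of them passed the filter through 1 library alone. The other row, isl1b (ENSDARG00000021055), had 0 reads in both libraries, which allows at most 0.18 CPM in rbm24a-/- heads and 0.212 CPM in wildtype heads. By at least 2-fold, 1 of the 10 measured rows was lower in rbm24a-/- heads and none was higher. Across all measured features 2.82% were lower and 2.22% higher by this rule, and 1 row past 2-fold is too few to read as a share of the members. A looser limit of 1.5-fold, chosen after the values had been seen, took in 6 of 10 rows as lower and none as higher. For all features those shares were 7.88% lower and 6.95% higher. The same 6 rows had a counting interval below equal levels, which 22.6% of all measured features also had. Because the members were chosen with earlier results of these data known, their distance from these shares is a description and no test.

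**Figure D1:**
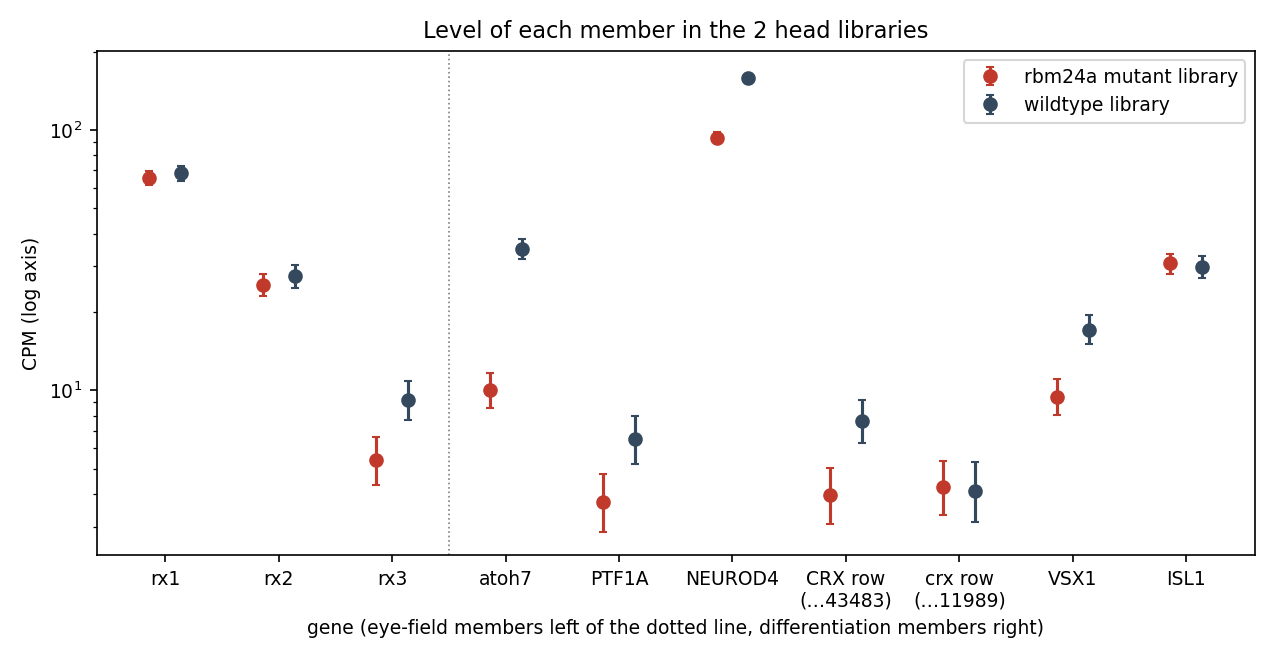
Level of each measured member in CPM (log axis) in the rbm24a mutant library (red, left of each pair) and the wildtype library (dark, right); bars are 95% Poisson intervals for counting error, with 1 library per group. rx1, rx2, crx (ENSDARG00000011989) and ISL1 had overlapping intervals in both libraries, and atoh7 had 10.0 CPM in rbm24a-/- heads against 35.0 CPM in wildtype heads.

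The eye-field genes split. rx1 and rx2 were at nearly the same level in both libraries, while rx3 was lower in rbm24a-/- heads. rx1 (ENSDARG00000071684), a homeobox gene of retinal progenitors, had 1093 reads or 65.6 CPM in rbm24a-/- heads and 964 reads or 68.1 CPM in wildtype heads. The ratio of mutant to wildtype was 0.962 (interval 0.882 to 1.05). rx2 (ENSDARG00000040321), its close relative in the optic cup, had 425 reads or 25.5 CPM in rbm24a-/- heads and 389 reads or 27.5 CPM in wildtype heads. Its ratio was 0.927 (interval 0.806 to 1.07), so for both genes the difference lay within counting error.

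rx3 (ENSDARG00000052893) is needed for the optic vesicles to form in zebrafish and is later expressed in the hypothalamus and retina. It had 90 reads or 5.40 CPM in rbm24a-/- heads and 130 reads or 9.19 CPM in wildtype heads, 1.70-fold lower in rbm24a-/- heads (interval 1.29 to 2.25). Read against rx2 within each library, which removes the library total from the comparison, there were 21.2 rx3 reads per 100 rx2 reads in rbm24a-/- heads and 33.4 in wildtype heads. That within-library ratio was 1.58-fold lower in rbm24a-/- heads (interval 1.15 to 2.16). rx3 therefore stood with the lower differentiation genes and apart from rx1 and rx2, although the number of its reads was small.

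atoh7, a bHLH factor without which zebrafish form no retinal ganglion cells, had the lowest ratio of the 10 measured rows. atoh7 (ENSDARG00000069552) had 167 reads or 10.0 CPM in rbm24a-/- heads and 495 reads or 35.0 CPM in wildtype heads. It was 3.49-fold lower in rbm24a-/- heads (interval 2.92 to 4.19), with a log2 ratio of -1.71. Of all measured features, 0.812% had a ratio at or below it, and it ranked 147 from the lowest. Per 100 rx1 reads there were 15.3 atoh7 reads in rbm24a-/- heads and 51.3 in wildtype heads, a 3.36-fold lower ratio in rbm24a-/- heads (interval 2.75 to 4.11). In the authors' deposited table, whose name marks its 37 genes as significant in their comparison, atoh7 is the only one of these 11 rows. There its fold is written as wildtype over mutant, at 3.41. That table holds no gene below 21.6 FPKM in wildtype heads, a level that among these genes atoh7 and neurod4 alone exceeded.

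The other bHLH members were lower by a smaller factor. neurod4 (NEUROD4, ENSDARG00000003469), a proneural factor active in newborn retinal and brain neurons, had 1556 reads or 93.4 CPM in rbm24a-/- heads and 2232 reads or 158 CPM in wildtype heads. It was 1.69-fold lower in rbm24a-/- heads (interval 1.58 to 1.80). Relative to its value this was the narrowest interval of the members, because neurod4 had the most reads. ptf1a (PTF1A, ENSDARG00000014479), which directs progenitors to the horizontal and amacrine fates, had 62 reads or 3.72 CPM in rbm24a-/- heads and 92 reads or 6.50 CPM in wildtype heads. It was 1.75-fold lower in rbm24a-/- heads, with an interval of 1.25 to 2.45. The atoh7 difference exceeded that of neurod4: there were 10.7 atoh7 reads per 100 neurod4 reads in rbm24a-/- heads and 22.2 in wildtype heads, 2.07-fold fewer in rbm24a-/- heads (interval 1.71 to 2.51).

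Among the homeodomain members, vsx1 was lower and isl1 was not. vsx1 (VSX1, ENSDARG00000056292), a factor of bipolar interneurons, had 158 reads or 9.48 CPM in rbm24a-/- heads and 242 reads or 17.1 CPM in wildtype heads, 1.80-fold lower in rbm24a-/- heads (interval 1.47 to 2.22). isl1 (ISL1, ENSDARG00000004023), a LIM-homeodomain factor of ganglion cells and of cranial motor and sensory neurons, had 512 reads or 30.7 CPM in rbm24a-/- heads and 423 reads or 29.9 CPM in wildtype heads. The mutant to wildtype ratio of isl1 was 1.03 (interval 0.902 to 1.17). The isl1 level thus differed by less than counting error in the whole head, where retinal and other sources of isl1 were not separated.

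The value for crx, a homeodomain factor of photoreceptors, depends on which row carries it. The names table gives the symbol to 2 rows that differ in case. The row named crx (ENSDARG00000011989) had 71 reads or 4.26 CPM in rbm24a-/- heads and 58 reads or 4.10 CPM in wildtype heads, a ratio of 1.04 (interval 0.724 to 1.496). The row named CRX (ENSDARG00000043483) had 66 reads or 3.96 CPM in rbm24a-/- heads and 108 reads or 7.63 CPM in wildtype heads, 1.93-fold lower in rbm24a-/- heads (interval 1.41 to 2.66).

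The 2 rows differed in their ratio, and they also differ in their neighbours in the table. Among the 20 rows on each side of ENSDARG00000011989, 29 of 35 distinct symbols are also within 40 genes of crx in the RefSeq table of assembly GRCz12tu, and none is near otx5, a relative of crx in the same gene family. Around ENSDARG00000043483, 10 of 18 symbols are near otx5 and none is near crx. Its length entry of 5418 bp is close to the 5388 bp span of otx5 in RefSeq, against 3703 bp for crx, but the length entry of ENSDARG00000011989, 18564 bp, is far from both, so lengths do not settle the matter. No row of the names table is called otx5. The files do not pair ENSDARG00000043483 with otx5, so it is called the CRX row here. No difference in crx beyond counting error was detectable in the row whose neighbours are those of crx.

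**Figure D2:**
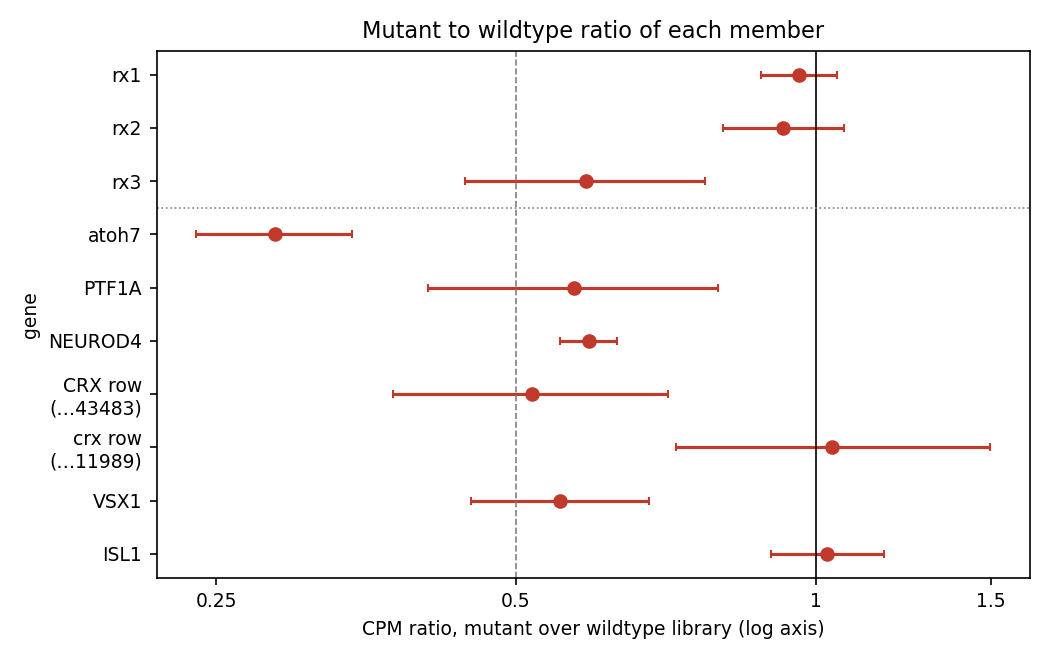
Ratio of CPM, mutant over wildtype library (log axis), for each measured member; bars are 95% exact intervals for counting error, the solid line marks equal levels and the dashed line a 2-fold lower level. atoh7 lies at 0.286, rx3, PTF1A, NEUROD4, CRX and VSX1 lie between 0.519 and 0.592, and the remaining 4 rows have intervals that include 1.

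As sets, the differentiation genes had a lower mutant to wildtype ratio than the eye-field genes. The median log2 ratio was -0.75 over the 7 measured differentiation rows and -0.10 over the 3 eye-field rows, beside 0.00 over all measured features. The median of the differentiation rows was -0.71 without the CRX row. Both sets were chosen with earlier results of these data known, so the gap between them is a description. By at least 2-fold, 1 of the 7 differentiation rows and 0 of the 3 eye-field rows were lower. Summed over the set, the differentiation rows had 156 CPM in rbm24a-/- heads and 258 CPM in wildtype heads, and neurod4 supplied most of both sums. The summed eye-field rows had 96.5 CPM in rbm24a-/- heads and 105 CPM in wildtype heads. Neither set was uniform, since rx3 was low among the eye-field genes, and isl1 and crx (ENSDARG00000011989) were level among the differentiation genes.

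In tissue from the whole head, fewer cells of a type and less RNA per cell cannot be told apart, and no sample held the eye without the brain.

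**Figure D3:**
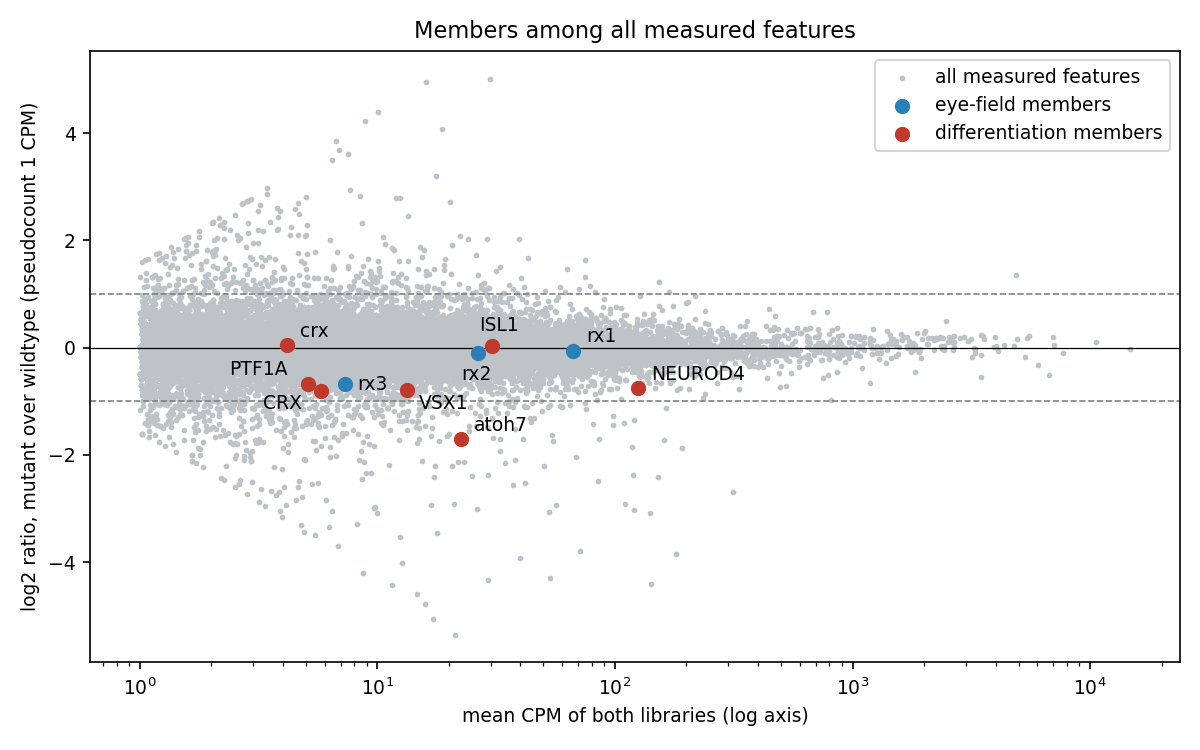
Log2 ratio of mutant over wildtype (pseudocount 1 CPM) against mean CPM of both libraries (log axis) for the 18094 measured features (grey), with eye-field members in blue and differentiation members in red; dashed lines mark 2-fold. atoh7 at -1.71 is the member outside the dashed lines, and rx1, rx2, crx and ISL1 lie near 0.

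Levels can be compared between genes with the deposited RPKM values, which are per kilobase. The length behind them is not the length column: for rx2 the values imply 2979 bp, against 28380 bp in that column. On this scale neurod4 was the most abundant of the 10 rows in both libraries, at 47.5 RPKM in rbm24a-/- heads and 80.2 RPKM in wildtype heads. In the mutant library rx1 (17.2 RPKM) came next, then atoh7 (9.59 RPKM) and rx2 (8.56 RPKM), whose counting intervals overlapped. In the wildtype library atoh7 (33.5 RPKM) came next and stood above rx1 (17.8 RPKM) and rx2 (9.23 RPKM), with intervals that did not overlap. The order of atoh7 and rx1 was thus exchanged between the libraries.

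Below these, ISL1 had 6.96 RPKM in rbm24a-/- heads and 6.77 RPKM in wildtype heads. PTF1A had 4.66 RPKM in rbm24a-/- heads and 8.15 RPKM in wildtype heads, and rx3 had 3.83 RPKM in rbm24a-/- heads and 6.51 RPKM in wildtype heads. VSX1 had 3.22 RPKM in rbm24a-/- heads and 5.81 RPKM in wildtype heads. Neighbours among these 4 genes had overlapping intervals in wildtype heads, and in rbm24a-/- heads ISL1 stood apart from PTF1A while PTF1A, rx3 and VSX1 overlapped their neighbours. The CRX row and the crx row were lowest, at 2.27 and 1.39 RPKM in rbm24a-/- heads and at 4.37 and 1.33 RPKM in wildtype heads.

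Other genes of the eye field and of retinal progenitors, which the choice of members did not include, shared no direction between the libraries. Of 14 measured, none was past 2-fold, 7 lay above 0 and 7 below, and the median log2 ratio was 0.03. The counting interval lay above equal levels for 5 of them and below for 2. For all measured features those shares were 21.8% and 22.6%. The ratios farthest from 0 in the list were LHX2, an early eye-field factor, at 0.46, six7 at -0.37 on 18 mutant and 24 wildtype reads, and SIX6 at -0.35.

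Genes that pattern the optic cup had a median log2 ratio of -0.07 over 20 rows, none past 2-fold. The Eph receptor genes EPHB2 (ENSDARG00000037373) and EPHB3 (ENSDARG00000031548) were at -0.67 and -0.44, and TBX5, a dorsal retina factor, at 0.55 on 30 mutant and 13 wildtype reads. The other EPHB2 and EPHB3 rows, named after their values were seen, were at -0.39 and -0.10. Genes of the ciliary marginal zone, where retinal stem cells lie, and of their cell cycle had a median of -0.02 over 7 rows, which was 0.02 with median-of-ratios scaling. Only 5 of the 10 symbols of this list matched. The median thus rests mainly on cell cycle genes, and dividing cells outside the retina were not separated. There one RRM2 row (ENSDARG00000020711), a subunit of the enzyme that makes deoxynucleotides, was at 0.73, and the other (ENSDARG00000078069), named after its value was seen, at -0.02. MYCN was at 0.29, and the cell cycle inhibitor CDKN1B (ENSDARG00000029018) at -0.48. The other CDKN1B row, named after its value was seen, was at -0.11 on 756 mutant and 696 wildtype reads. CCND1, a cyclin abundant in dividing retinal cells, had 985 CPM in rbm24a-/- heads and 1076 CPM in wildtype heads, and it was named after its value was seen.

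Lists of the retinal neuron classes had medians below 0, while 50.2% of all measured features lay below 0. The ganglion cell list had a median log2 ratio of -0.20 over 19 rows, with 14 below 0 and none past 2-fold on that scale. One RBPMS2 row (ENSDARG00000079578), an RNA-binding protein of ganglion cells, had 63 reads in rbm24a-/- heads and 118 in wildtype heads. Its log2 ratio was -0.97, and in plain CPM it was 2.21-fold lower in rbm24a-/- heads (interval 1.61 to 3.05). The other RBPMS2 row, named after its value was seen, was at -0.36 on 75 mutant and 86 wildtype reads. The POU-domain factors POU4F1 and POU4F2, which act after atoh7 in ganglion cells, were at -0.74 and -0.46. Both ISL2 rows, ganglion cell and motor neuron factors related to isl1, were above 0 at 0.44 and 0.11, named after their values were seen.

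The amacrine and horizontal cell list had a median of -0.37 over 16 rows, with 12 below 0. Without a filter on low values this median was -0.26. ONECUT2, a factor of horizontal cells in the mouse, was past 2-fold, with 48 reads in rbm24a-/- heads and 118 in wildtype heads (2.90-fold lower in rbm24a-/- heads, interval 2.05 to 4.14). BHLHE22, a bHLH factor of amacrine cells, was at -0.89, as was SLC32A1, the transporter that loads GABA and glycine into synaptic vesicles. GABA neurons of the brain also express SLC32A1. FOXN4, which acts upstream of ptf1a in the mouse retina, was at -0.14, also named after its value was seen.

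The photoreceptor and pineal list had a median of -0.16 over 13 rows, with 8 below 0, and of -0.03 under a filter of 5 CPM on the mean. THRB, the thyroid hormone receptor needed for red cones, was past 2-fold, with 149 reads in rbm24a-/- heads and 298 in wildtype heads (2.36-fold lower in rbm24a-/- heads, interval 1.93 to 2.89). One TBX2 row (ENSDARG00000018025) was at 0.48, and rcvrna, a calcium sensor of photoreceptors, at -0.45 on 50 mutant and 63 wildtype reads. The other TBX2 row, named after its value was seen, was at -0.03 on 1754 mutant and 1524 wildtype reads. Of the 20 rows found for this list, 7 were below 1 CPM. Bipolar cell genes had a median of -0.43 over 7 rows. It was -0.24 with a pseudocount of 5 CPM and -0.41 under the filter of 5 CPM. Only IRX5 at -0.47 and LHX4 at -0.36, named after their values were seen, passed that filter. LHX3 was at -0.86, and BHLHE23 at -0.63 on 17 mutant and 30 wildtype reads. GNB3 was at 0.48 on 46 mutant and 24 wildtype reads, and gnb3b, named after its value was seen, at -0.32. LHX3 also belongs to the pituitary and to motor neurons.

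The list of bHLH and Notch regulators, most of them active across the young nervous system, had a median of -0.34 over 17 rows, with 14 below 0 and none past 2-fold. That median was -0.27 with a pseudocount of 5 CPM, -0.25 with deposited RPKM and -0.26 without a filter on low values. One HES6 row (ENSDARG00000007097), a bHLH gene of cells that start to differentiate, was 1.72-fold lower in rbm24a-/- heads (interval 1.59 to 1.85). ascl1a, a proneural gene, was 1.65-fold lower in rbm24a-/- heads (interval 1.52 to 1.79), and one NEUROD6 row was at -0.56 on 33 mutant and 48 wildtype reads. These were the lowest ratios of the list. Named after their values were seen, the other HES6 row (ENSDARG00000019335) was at -0.55, ascl1b at 0.00, dlb at 0.24 and neurog3 at 0.44. The other NEUROD6 row, also named after its value was seen, was at -0.08 on 223 mutant and 201 wildtype reads.

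Markers of the other sites that express these genes were read beside them. Cranial sensory and motor neuron genes, a second site of isl1 and neurod4, had a median log2 ratio of 0.22 over 13 rows, with TBX20 at 0.53, NTRK3 (ENSDARG00000086214) at 0.48 and PHOX2A at 0.30. The other NTRK3 row, named after its value was seen, was at -0.10 on 76 mutant and 70 wildtype reads. Hindbrain and spinal interneuron genes, from a second site of ptf1a, had a median of -0.18 over 13 rows. One LMX1B row (ENSDARG00000104815) was at -0.96, OLIG3 at -0.66 and lbx1a at -0.63. The other LMX1B row (ENSDARG00000068365), named after its value was seen, was at 0.14 on 662 mutant and 510 wildtype reads. In that list 4 rows lay above 0. Hypothalamus and pituitary genes, from a second site of rx3, had a median of 0.21 over 10 rows, of which 4 were below 0. Both OTP rows, which are homeodomain factors of hypothalamic neurons, were at -0.89 and -0.82, and LHX3 was at -0.86. Above 0 lay 6 rows, among them SIX3 at 0.18 and 0.23, FEZF2 at 0.28 and pitx3 at 0.33, named after their values were seen. Of the 14 symbols of this list 11 matched. rx3 itself was at -0.67, and the list as a whole did not share its direction. Of 10 rows found for pancreas genes, none reached 1 CPM, and the most reads were those of pdx1, a pancreas factor named after its value was seen, at 15 in rbm24a-/- heads and 6 in wildtype heads. The part of any other site in the values of the members was not tested.

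Genes of the retinal pigment epithelium, the layer of the optic cup that makes no neurons, had a median of 0.34 over 14 rows, with 10 above 0. One RPE65 row (ENSDARG00000054420), an enzyme of the visual cycle, was past 2-fold at 72 reads in rbm24a-/- heads and 21 in wildtype heads. The other RPE65 rows had more reads and were at -0.02 (ENSDARG00000094752) and -0.34 (ENSDARG00000007480), and rlbp1b, also of the visual cycle, was at -0.50; these were named after their values were seen. MITF is the master factor of pigment cells. One MITF row (ENSDARG00000037833) was at 0.77 on 40 mutant and 14 wildtype reads. The other (ENSDARG00000003732), named after its value was seen, was at 0.45 on 316 mutant and 192 wildtype reads. The melanosome gene pmela was at 0.69. Pigment cells of the skin share these genes. In all, 156 rows of these 13 lists were measured. By at least 2-fold, 2 were lower and 1 was higher, shares of 1.28% and 0.641%, beside 2.82% and 2.22% of all measured features. At 1.5-fold, 20 were lower (12.8%) and 4 higher (2.56%), beside 7.88% and 6.95% of all measured features. For lower genes the order of the shares thus turned with the limit. In plain CPM, RBPMS2 (2.21-fold), LMX1B (2.07-fold), LHX3 (2.08-fold) and BHLHE23 (2.08-fold) were also beyond 2-fold lower in rbm24a-/- heads. MITF (ENSDARG00000037833) was 2.43-fold higher in plain CPM.

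**Figure D4:**
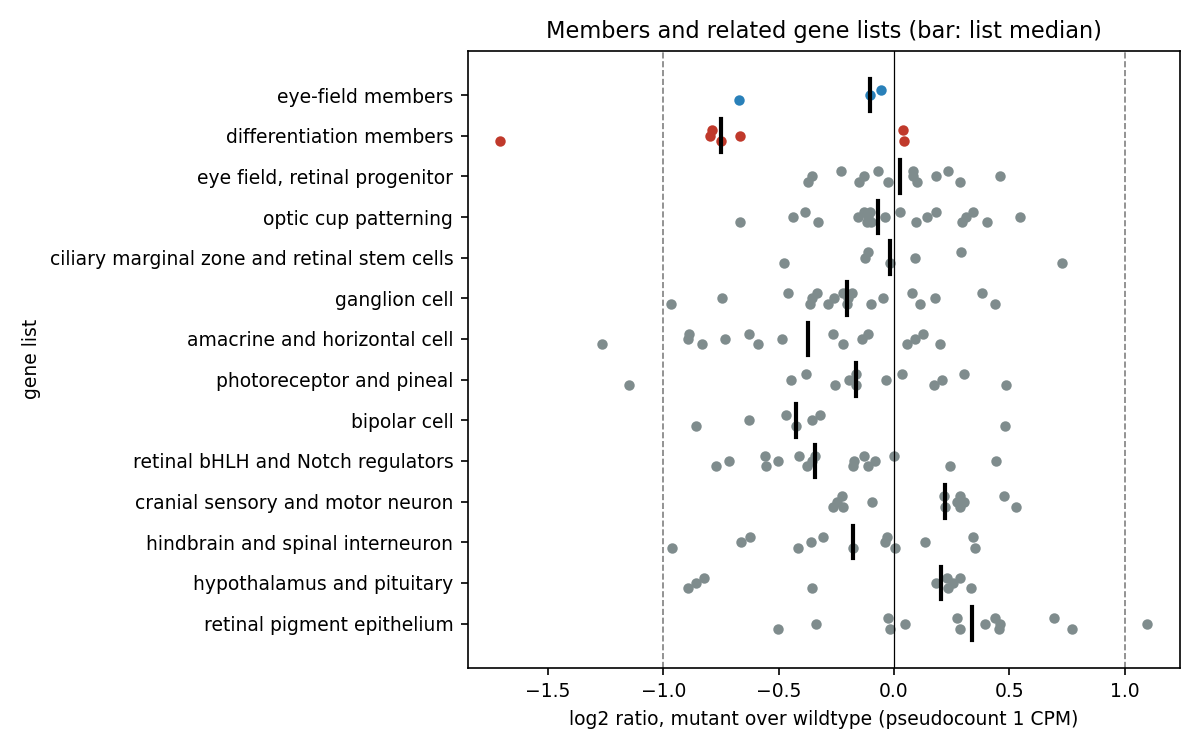
Log2 ratio of mutant over wildtype (pseudocount 1 CPM) for each measured gene of the 2 member sets (blue and red) and of 12 related lists (grey); black bars are medians and dashed lines mark 2-fold. The differentiation members have a median of -0.75, the amacrine and horizontal, bipolar, and bHLH and Notch lists have medians between -0.43 and -0.34, and the lists of other eye-field genes and of pigment genes have medians of 0.03 and 0.34.

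In these lists the genes with the log2 ratio nearest to that of atoh7 were ONECUT2, THRB, RBPMS2 (ENSDARG00000079578), LMX1B (ENSDARG00000104815) and BHLHE22. The absolute difference of log2 ratios served as the measure of likeness, over 2 libraries. ONECUT2 differed from atoh7 by 0.44 and BHLHE22 by 0.81, so no measured gene of the lists had a log2 ratio as low as that of atoh7.

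The chromosomal neighbours of the members were read as a further description. Among the 40 genes nearest to atoh7 in the RefSeq table, 22 were matched and measured. None of them was past 2-fold, and their log2 ratios ran from -0.57 to 0.69 with a median of -0.05. For neurod4 and vsx1, 14 neighbours each were measured, with medians of 0.07 and 0.07 and none past 2-fold. For rx3, 15 were measured, with a median of 0.02. The ratios of these 4 members lay below those of every such neighbour, but this was not so for ptf1a, whose 15 measured neighbours ran from -2.12 to 0.47 with 1 past 2-fold. Neighbours of rx1, rx2 and isl1 also lay below the member, with lowest log2 ratios of -2.11, -0.71 and -1.13. Those of crx ran from -0.15 to 0.66.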

How the data were processed

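Per the labels' protocols, TruSeq mRNA libraries were sequenced as paired ends on a HiSeq 2000; the protocols speak of several independent samples, and 2 libraries were analysed here. The submitters' processing notes name HISAT2 2.0.1, HTSeq 0.6.1, DESeq2, cutadapt and bcl2fastq 2.17.1.14, with build GRCz11. No annotation release or strand setting was found in the sources, so overlapping and antisense genes cannot be separated. The deposited table gives a raw read count and an RPKM value per feature, and 0 columns of other samples were present. The authors' deposited comparison table gives a count, FPKM, a signal made of counts over size factors, the ratio of wildtype to mutant and the log2 of that ratio. Its p-value column, also deposited, is not printed because it rests on 1 library per group.

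Counts were scaled to CPM of the column sum (Python 3.11.15, scipy 1.17.1). Ratio intervals are Clopper-Pearson intervals on the split of a gene's reads, level intervals are exact Poisson intervals, and within-library ratios have exact conditional odds ratio intervals. A count of 0 was limited by 3 counts. Symbols came from a names table that often carries the mammalian name. Of 186 symbols in 13 related lists, 168 matched: 41 exactly, 60 with case ignored and 67 once the copy letter was dropped, where both copies were taken. Levels of close copies are uncertain where reads could be shared. Members and lists were chosen with earlier results of these data known. Genes named in the text are all members, the 3 measured genes of each list with the largest absolute log2 ratio and any past 2-fold, and the 5 genes nearest to atoh7; others are marked. Alternatives were pseudocounts, filters, RPKM and scalings. The calculation was checked on simulated data. The values of 1 gene of the related lists are not reported here.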

Additional observations from a re-analysis of the deposited data

How the results depend on the processing

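No paired analysis was possible because a single library stands for each genotype, which also leaves none to drop. Of the values past 2-fold for members, none changed sign under the alternatives run. The member lower by at least 2-fold was atoh7 under all alternatives that keep that limit, with log2 ratios from -1.79 to -1.41, and with 1.5-fold the number was 6. The median of the differentiation rows was -0.50 with a pseudocount of 5 CPM, which lies outside the counting interval of its middle gene. The difference between the medians of the differentiation and the eye-field rows ran from -0.68 to -0.40. Of 79 values for single members under alternatives, 78 stayed inside their counting interval. The other was atoh7, at -1.41 with a pseudocount of 5 CPM. Of 96 list medians, 92 stayed inside the counting interval of their middle genes. Outside it lay the bHLH and Notch list with a pseudocount of 5 CPM (-0.27), deposited RPKM (-0.25) and no filter on low values (-0.26). The amacrine and horizontal cell list also lay outside it with no filter (-0.26). Under a filter of 5 CPM on the mean, the medians of the cranial neuron, hindbrain and photoreceptor lists were 0.03, -0.04 and -0.03, so their distance from 0 rests on genes with few reads.

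For all features, the numbers lower and higher by at least 2-fold, 511 and 402, became 830 and 672 with a pseudocount of 0.1 CPM, 164 and 97 with one of 5 CPM, 242 and 188 with deposited RPKM, 243 and 171 under a filter of 5 CPM on the mean, and 1425 and 1258 at 1.5-fold. In the related lists the 2 lower and 1 higher became 5 and 2, 0 and 0, and 0 and 0 under the first 3 of these, 20 and 4 at 1.5-fold, and no gene was higher under the filter of 5 CPM. The authors' size factors, the limit of 1.5-fold, and leaving out the CRX row or rx3 were chosen after seeing the data. rx3, ptf1a and both rows called crx had few reads and wide intervals; for crx (ENSDARG00000011989) the interval reaches a ratio of 1.496, so a smaller difference was not detectable at this depth.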
